A study of Anopheles gambiae with 4 samples.

Results

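Of 7727 fat body probe sets of female Anopheles gambiae that were bright enough to test, 83 gave a higher signal after injection of a CpG oligodeoxynucleotide (CpG-ODN) than after buffer in each of 2 replicates. These 83 members were chosen by the difference itself: at least 0.4 on the log2 scale, or 1.32-fold, in replicate 1 and again in replicate 2. They make up 83 of the 17965 probe sets in the table and 83 of its 16884 probe sets with an ID starting with Ag. Eligible were IDs outside the class Ag.X. whose mean log2 signal over the 4 arrays lay above the median of all Ag. probe sets, a signal of 69.5. Because the rule used the change with CpG-ODN, that change is given below as a description, and counts from a fit of it support nothing about the members.

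Adult females of the Yaounde strain, 3 to 4 days old and kept on glucose, were injected in the thorax and left for 18 h. The CpG-ODN group received 69 nL of a 0.1 mM solution of the oligodeoxynucleotide, and the control group the same volume of elution buffer, so both groups carried the wound of the needle and no uninjected group was analysed here. RNA came from pools of 20 to 30 fat bodies, dissected as abdomens freed of midgut, ovaries and Malpighian tubules, and 3.7 µg of it went on each of 4 Affymetrix Plasmodium/Anopheles arrays, 2 per group. Arrays are paired here by the replicate number in their titles, which the labels do not say marks one shared experiment. The sample descriptions number the same arrays 1 and 3. In a pooled tissue, more cells of a type and more RNA per cell cannot be told apart.

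The oligodeoxynucleotide, the agent that separates the groups, is shown with its single CG step in capitals, at bases 8 and 9 of 20 from the 5′ end. The titles call it 0604 and the descriptions 0640, and the names were taken to mean one oligodeoxynucleotide.
0604: tccatgaCGttcctgatgct

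The fat body does for an insect much of what liver and adipose tissue do for a vertebrate: it stores lipid and glycogen, makes yolk proteins after a blood meal, and secretes lipoproteins, serine proteases, complement-like factors and antimicrobial peptides into the haemolymph. Immune genes of the mosquito fat body are controlled by the Toll, Imd and JAK-STAT pathways, which respond to microbial molecules. In mammals, unmethylated CpG motifs in DNA are sensed by Toll-like receptor 9 in endosomes, and synthetic CpG-ODNs are used there to stimulate immunity. The files do not pair the probe set IDs with genes, so which of these functions the members belong to is not given, and the tissue label was not checked against marker genes. Members are called by their rank in the smaller of their 2 replicate changes, and the first 2 also by ID.

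The member ranked first was Ag.2R.1440.0_CDS_at. Its signal was 186 and 154 on the CpG-ODN arrays of replicates 1 and 2, and 48.8 and 41.6 on the buffer arrays. Both CpG-ODN values lay far above both buffer values, which were under the background level of their arrays (68.9 and 57.1 signal units, the 95th percentile of 24 control probe sets for Affymetrix tags and Plasmodium genes). On the log2 scale the means were 7.40 ± 0.19 (SD, n = 2) for CpG-ODN and 5.49 ± 0.16 (SD, n = 2) for buffer. Set against that background level, the CpG-ODN mean was at least 2.70-fold higher. It was the one member with both buffer arrays under background.

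Next came Ag.2R.65.0_CDS_a_at, at a signal of 261 and 356 with CpG-ODN in replicates 1 and 2, and 113 and 123 with buffer. Here all 4 arrays stood above background and the groups lay well apart. The log2 means were 8.25 ± 0.32 (SD, n = 2) for CpG-ODN against 6.88 ± 0.08 (SD, n = 2) for buffer, a difference of 1.37, or 2.31-fold in replicate 1 and 2.91-fold in replicate 2. The suffix _a_at is Affymetrix's mark for a probe set shared by alternative transcripts of a gene.

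As measured, 6 members reached 2-fold in both replicates, these 2 and the next 4 in rank. With buffer signals under background raised to that level, 5 did. Rank 3 is the exception, with CpG-ODN signals of 172 and 102 against 73.1 and 44.8 with buffer, the last under background, so that its change in replicate 2 was at least 1.79-fold. Rank 4, whose suffix _s_at marks probes that can bind several transcripts, had 419 and 304 against 177 and 134. In both of these the replicate 2 arrays were dimmer than the replicate 1 arrays of the same treatment. Ranks 5 and 6 were bright probe sets, measured far above background. For rank 5 the CpG-ODN arrays gave 1735 and 2559 and the buffer arrays 812 and 906. For rank 6 they gave 4145 and 2725, and 1831 and 1278. The 2 therefore differed in which replicate was brighter, while CpG-ODN was higher in each.

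**Figure D1:**
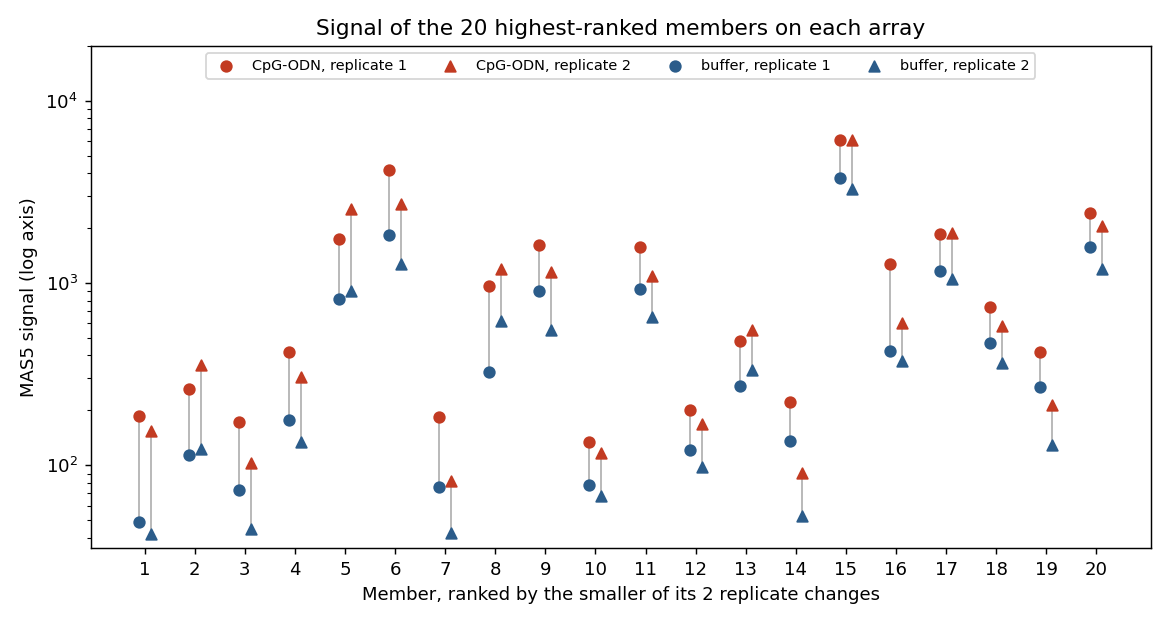
MAS5 signal (log axis) of the 20 members with the highest rank, each at its rank on the horizontal axis. Red points are CpG-ODN arrays and blue points buffer arrays, circles replicate 1 and triangles replicate 2, and grey lines join the arrays of one replicate number. In all 20 the red point lies above the blue point of the same replicate, and signals run from 41.6 (rank 1, buffer) to 6129 (rank 15, CpG-ODN).

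Many members lay close to the threshold in the smaller of their 2 changes. The mean change over both replicates ran from 0.43 to 1.91 log2 with a median of 0.64, or 1.55-fold, against a median of -0.02 over all 8442 tested Ag. probe sets. At least 1.5-fold in both replicates was reached by 29 members, and 43 had a smaller change of under 0.5 log2. The member nearest the threshold had changes of 0.40 and 1.37 in replicates 1 and 2 (CpG-ODN signals of 1297 and 1488, buffer signals of 981 and 576). The nearest probe set outside had 0.40 and 1.40 (CpG-ODN 538 and 567, buffer 408 and 215), so the 2 sides of the threshold look alike. Within 0.05 log2 of the threshold lay 21 members and 41 probe sets outside.

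The changes of the 2 replicates were within 0.1 log2 of each other in 31 members and farther apart in the rest. The median was 0.56 log2 in replicate 1 and 0.69 in replicate 2, and 50 of the 83 changed more in replicate 2. In 11 members the log2 change of one replicate was over 2 times that of the other, 3 with the larger change in replicate 1 and 8 in replicate 2. The widest gap in favour of replicate 1 was at rank 39, with signals of 335 against 59.4 in replicate 1 (CpG-ODN against buffer, the latter under background) and 188 against 133 in replicate 2. At rank 40 it was replicate 2 that stood out, with 589 against 150, while replicate 1 gave 255 against 180. Ranks 39 and 40 both have a mean change of more than 2-fold, and in each most of it came from a single replicate.

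In replicate 1 alone 196 of the 7727 eligible probe sets were higher by 0.4 log2, and in replicate 2 alone 576 were. The 83 members are 42.3% of the first list and 14.4% of the second. They are 1.07% of the eligible probe sets, a share set by the rule. The mirror rule, lower by 0.4 log2 in both replicates, was met by 23 probe sets, or 0.298%, and 44 were past the threshold in opposite directions, 26 of them higher in replicate 1 and lower in replicate 2.

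**Figure D2:**
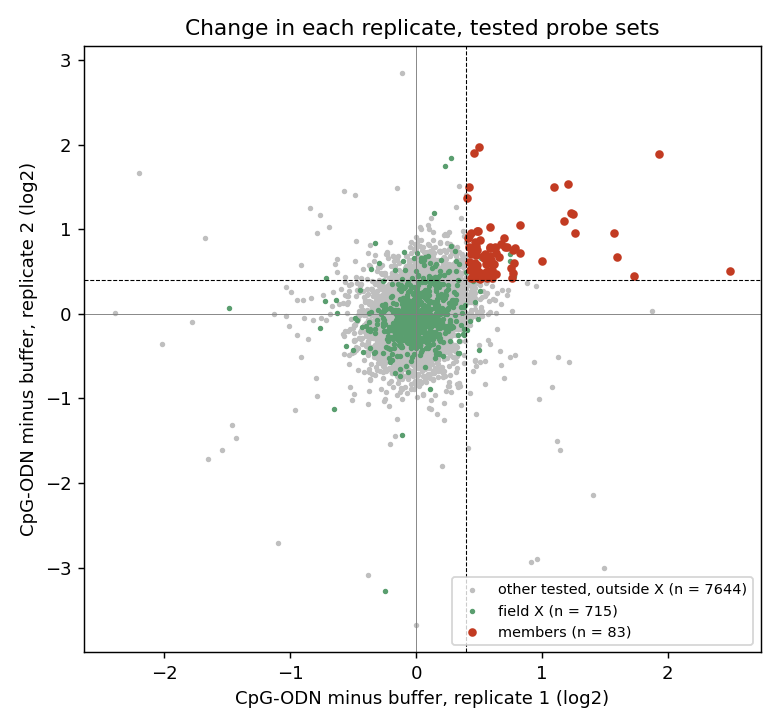
CpG-ODN minus buffer (log2) in replicate 1 against replicate 2 for the tested Ag. probe sets: members in red, probe sets with field X in green, all others in grey, with dashed lines at 0.4. Members fill the corner above and right of the lines, most of them close to its edges, with rank 1 farthest into it (1.93 and 1.88 as measured, with buffer signals under background).

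The limma fit of CpG-ODN against buffer, across all 8442 tested probe sets, called 0% of them higher and 0 of the 83 members (smallest Benjamini-Hochberg adjusted p 0.9999, with 60 members, and 152 of all tested probe sets, at an unadjusted p below 0.05). Once the replicate number was added as a block, 15 members were called by limma, against 0.19% of all tested probe sets called higher (16 of 8442). Those 15 held ranks 1 to 9, 11, 15, 17, 20, 29 and 44, but only 2 members were called by that fit after cyclic loess, 3 without the trend, 7 after quantile normalization or median centring and 8 with log2(signal + 64). The fit and the rule rest on one contrast, so neither count supports the choice of members. Without the replicate number, the groups of arrays did not overlap in 72 members, where 12.2% of all tested probe sets had both CpG-ODN arrays above both buffer arrays. In the other 11 members the CpG-ODN array of replicate 2 lay below the buffer array of replicate 1. The rule already puts each CpG-ODN array above the buffer array of its replicate. The count of 72 thus follows in part from the rule and is a description only.

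The difference between replicate numbers, averaged over the treatments, was no part of the rule, although it comes from the same 4 arrays. Members tended to be brighter in replicate 1. The median of replicate 1 minus replicate 2 was 0.21 log2 over the members and 0.01 over all tested probe sets, and 59 of 83 members (71.1%) against 51.0% of all tested were brighter in replicate 1. On the buffer arrays alone 60 members (72.3%) were brighter in replicate 1 and the median difference was 0.24. On the CpG-ODN arrays alone 51 (61.4%) were brighter and the median was 0.19. Over all tested probe sets those shares were 48.7% and 52.3%, and the medians -0.01 and 0.01. Each of these splits by treatment also holds the gap between the 2 replicate changes, which the rule used, so both are a description only.

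Tested with limma across all 8442 probe sets, 2 members were called brighter in replicate 1 and 0 dimmer, against 1.55% and 1.78% of all tested. That fit counts each member's change with CpG-ODN as error, and the median standard error was 0.29 log2 over members and 0.12 over all tested. With treatment as a block it was 0.12 for both. Limma then called 22 members (26.5%) brighter in replicate 1, where the share of all tested was 6.59%, and 2 members (2.41%) dimmer, where it was 5.98%. The members' share called brighter was above that of all tested probe sets in each of 4 equal groups by brightness, at 38.5%, 41.7%, 33.3% and 15.0% from dimmest to brightest against 4.64%, 5.64%, 6.07% and 10.0%. Those groups hold 13, 12, 18 and 40 members, and no test of the members as a list was made. Most of the 13 in the dimmest group passed the cut on mean signal only through their CpG-ODN arrays. The fit with treatment as a block was run on the deposited scaling only, so these shares were not checked under other scalings. Without the block, leaving out the CpG-ODN array of replicate 2 gave 10 called members (12.0%, against 14.1% of all tested probe sets), and leaving out any one of the other 3 arrays gave 0, where 19 to 23 of all tested probe sets were called. The 9 hybridisation controls, which are bacterial and phage transcripts added with the labelled RNA, were also brighter in replicate 1, by 0.66 log2 on the CpG-ODN arrays and 0.67 on the buffer arrays. The 12 poly-A controls, added to the RNA before labelling, went the other way, with replicate 1 minus replicate 2 at -0.55 and -0.13 log2, and the part of either kind of control in the result was not tested.

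The 2 members called in both fits were ranks 30 and 65. For rank 30 the CpG-ODN and buffer signals were 448 and 299 in replicate 1 but 143 and 82.5 in replicate 2, a replicate difference of 1.75 log2 (limma adjusted p 0.0484 without and 0.00145 with treatment as a block). For rank 65 they were 312 and 230 in replicate 1 but 121 and 85.1 in replicate 2, a difference of 1.40 log2 (limma adjusted p 0.0401 and 0.00248). Without the block, neither was called after quantile normalization or median centring, where the smallest limma adjusted p of any member was 0.0503 and 0.0557. In both, each replicate 1 array was brighter than each replicate 2 array, so replicate number moved the signal more than CpG-ODN did. In all, 5 members (6.02%) differed by at least 2-fold between the replicates, each of them brighter in replicate 1, where 153 of all tested probe sets (1.81%) did, 87 brighter and 66 dimmer in replicate 1. Ranks 33 and 65, both among these 5, carry one ID number and may not be separate.

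**Figure D3:**
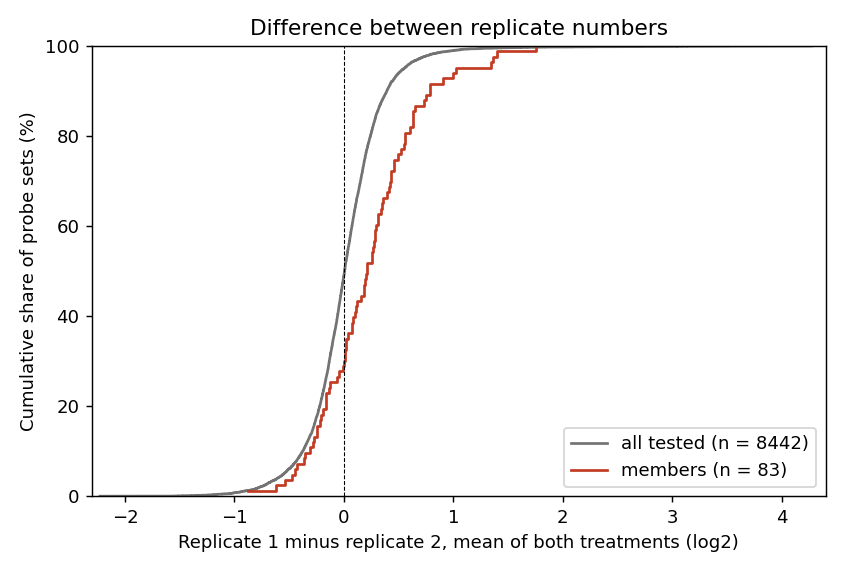
Cumulative share (%) of probe sets against replicate 1 minus replicate 2, the mean of both treatments on the log2 scale, for the 83 members (red) and all 8442 tested probe sets (grey). The red curve lies to the right of the grey one over most of its range, and passes 0 with 71.1% of members to its right, against 51.0% of all tested.

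Members were more frequent among bright probe sets. Signal is used here for how far a measurement stood above background, not to rank transcripts by abundance. The median signal was 266 over the members, from 70.8 to 4647, and 147 over all tested probe sets. Of the eligible probe sets, 0.677% were members in the dimmest of the 4 groups, 0.617% and 0.944% in the middle ones, and 2.05% in the brightest, above a signal of 297. The mirror rule followed the same course, with 0.156%, 0.103%, 0.262% and 0.665% lower in both replicates. Changes also had a slightly larger SD across probe sets in the brightest group than in the dimmest, 0.22 against 0.19 log2 in replicate 1 and 0.35 against 0.29 in replicate 2. Among members the median change differed little between these groups, from 0.60 to 0.68 log2. All 4 arrays stood above background in 71 members (85.5%), against 87.2% of all tested probe sets. Of the other 12 members, 11 had 1 buffer array under background and 1, rank 1, had both, and in 82 of the 83 both CpG-ODN arrays were above it. The brightness filter averaged all 4 arrays, and the rule asked for higher CpG-ODN arrays. A member could thus pass through its CpG-ODN arrays, as rank 1 did with buffer signals of 48.8 and 41.6 against the cut of 69.5. Ranks 3, 7, 45, 48, 57, 64, 68, 71 and 74 also had a mean log2 buffer signal under that of the cut. These and rank 1 were all in the dimmest group, so its share of members rests largely on passes through the CpG-ODN arrays. The split between treatments in arrays above background likewise follows in part from the rule and is a description only.

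**Figure D4:**
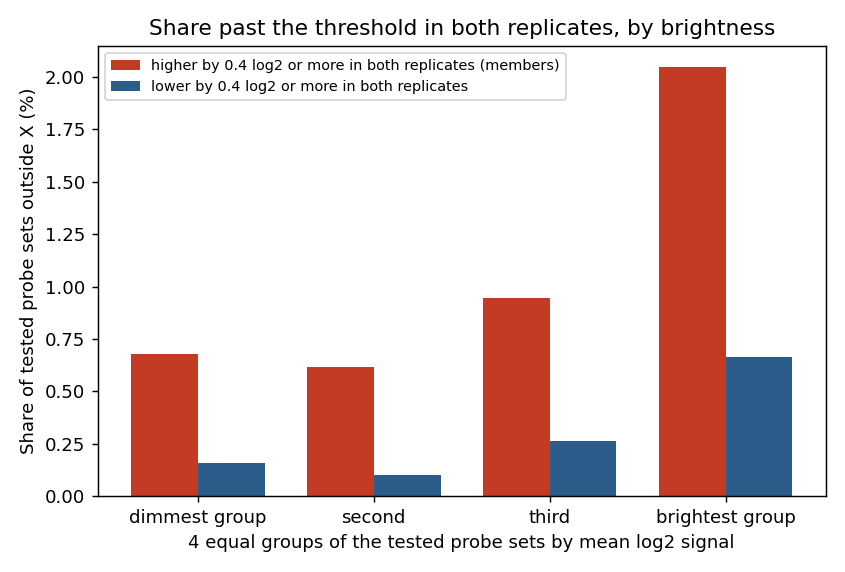
Share (%) of the tested probe sets outside X that were higher (red, the members) or lower (blue) by at least 0.4 log2 in both replicates, in 4 equal groups by mean log2 signal. The red bars rise from 0.677% in the dimmest to 2.05% in the brightest group, and the blue bars from 0.156% to 0.665%. Most members in the dimmest group passed the cut on mean signal only through their CpG-ODN arrays.

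Each ID carries a field named for a chromosome arm, or UNKN. The field 2R was held by 26 members, 3R by 25, 2L by 20, 3L by 10 and UNKN by 2. These are 31.3%, 30.1%, 24.1%, 12.0% and 2.41% of the members, where the eligible probe sets had 31.4%, 21.4%, 23.5%, 16.2% and 7.61%. The share with 2R or 2L was thus close to that of the eligible probe sets, 3R was more frequent and UNKN less, with no test made. IDs with CDS were held by 64 members (77.1%, against 77.5% of eligible probe sets) and IDs with UTR by 2 (2.41% against 7.92%). Suffix _s_at, for probes that can bind several transcripts, marked 4 members (4.82% against 9.58%), and 27 had _a_at (32.5% against 26.9%).

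The 83 members have 78 different ID numbers, so some may not be separate: 5 numbers are each held by 2 members. The sources used here do not say what a shared number stands for. Ranks 40 and 59 share one, and both changed mainly in replicate 2, rank 59 having CpG-ODN signals of 171 and 517 in replicates 1 and 2 against buffer signals of 124 and 139. Ranks 33 and 65 share another, and both were over 2-fold brighter in replicate 1 than in replicate 2. In these 2 pairs the members thus showed the same pattern over the 4 arrays. Ranks 11 and 21 were alike too, at 1579 and 1095 against 927 and 651 for rank 11 and at 841 and 727 against 545 and 420 for rank 21. The remaining pairs were ranks 13 and 49, both brighter in replicate 2, and ranks 74 and 78, which were less alike. Replicate 1 minus replicate 2 was -0.16 log2 at rank 74 and 0.28 at rank 78. Ranks 1 and 8 carry consecutive numbers of field 2R, and rank 8 had CpG-ODN signals of 960 and 1188 against buffer signals of 323 and 615.

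A further 13 Ag. probe sets outside the members carry the number of a member. Of the 10 that were tested, 6 were higher with CpG-ODN in both replicates, where 26.3% of all tested probe sets were. Their mean changes ran from -0.22 to 0.68 log2 with a median of 0.29. Some probe sets of a member's number therefore moved with it and others did not. These values come from the contrast that chose the members and are given as a description.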

How the data were processed

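RNA of 4 fat body pools was measured on 4 single-channel arrays. The authors deposited linear signal intensity values, 1 per probe set and array, made with MAS5 per the submitters' processing notes. MAS5 corrects for background, summarises each probe set's probes as 1 value and rescales the array; the sources used here do not give its version or scaling target. The deposited scaling was kept: array medians of the Ag. probe sets were 67.2 to 70.7. Values were taken as log2 without pseudocount. The 8442 Ag. probe sets above the median brightness were fitted with limma 3.58.1 in R 4.3.3. The settings were lmFit, eBayes with trend, two-sided tests, Benjamini-Hochberg over all 8442 and a threshold of 0.05. With 2 arrays per group, the number of arrays limits the precision. P-values of the CpG-ODN fit without a block measure the spread between these pools, with 2 residual degrees of freedom. With either block, 1 residual degree of freedom was left, from the gap between the 2 replicate changes. To it limma added 6.11 prior degrees of freedom drawn from all tested probe sets. The replicate fit without a block counts the change with CpG-ODN as error. Members and lists were chosen with earlier results of these data known. Members were ranked by the smaller replicate change; with no gene names, 2 IDs are printed, and lists of immune and marker genes could not be used. The background level was the 95th percentile of log2 signal over 24 control probe sets (Affymetrix tag controls and Plasmodium actin and Gapdh controls).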

Additional observations from a re-analysis of the deposited data

How the results depend on the processing

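The count of 83 members stayed within 1.5 times under quantile normalization (77, of which 74 were members), median centring (114, 83), cyclic loess (80, 77), no brightness filter (115), the upper 25% by brightness (58) and with X included (87); 73 members passed under all 3 scalings. It fell to 45 with log2(signal + 64), to 40 at a threshold of 0.5 and to 35 when all 4 differences between arrays had to pass with no pairing, and rose to 179 at 0.3; each follows from a changed rule or scale. With 1 replicate number left out, 196 to 576 probe sets passed. All 83 stayed higher in both replicates under each of the 3 scalings; log2(signal + 64) cannot turn a direction, but it lowered the log2 change of Ag.2R.1440.0_CDS_at from 1.91 as measured to 1.10 and that of Ag.2R.65.0_CDS_a_at from 1.37 to 1.02.

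Same-numbered arrays deviated together (r = 0.664 across tested probe sets), and with 2 pairs this is a hint from the data only. For CpG-ODN against buffer limma called 0 members, also without any 1 array (0 to 0; the single array left was taken to have the other group's spread). With the replicate block it called 15 (21 of all 8442 tested). That block gave 7 with quantile normalization (11 of all), 7 with median centring (11), 2 with cyclic loess (4), 8 with log2(signal + 64) (14) and 3 without the trend (7). Between replicates limma called 2 members (281 of all), 24 with treatment as a block (1061), 0 after quantile normalization (230), 0 after median centring (202; 8 and 7 members at an unadjusted p below 0.05), and 0 to 10 with 1 array left out (19 to 1188). Apart from the changed error with the blocks and without the trend, the cause was not tested.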

Other observations

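Outside the rule, 4 of the 715 tested probe sets with field X (0.559%) were higher by at least 0.4 log2 in both replicates, with smaller changes of 0.45 to 0.71. Among the 7754 dimmer Ag. probe sets outside X, 32 (0.413%) passed the same threshold and 42 (0.542%) passed its mirror. Lower pairs thus outnumbered higher ones among dim probe sets, unlike the brighter ones. The mean signals of the dim probe sets were at most 69.5, where the background levels of the arrays were 53.2 to 80.3. Their changes were therefore measured near or under background, and the contrast was not tested. The poly-A controls, added to the RNA before labelling, differed between treatments by -0.10 log2 in replicate 1 and 0.32 in replicate 2 (CpG-ODN minus buffer, 12 probe sets), and the hybridisation controls by 0.12 and 0.13.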
